A study of Homo sapiens with 9 samples.

Results

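The Notch genes described here are 10 of the 60708 genes listed in RNA-sequencing counts of 9 libraries labelled as the breast cancer line MDA-MB-231. They are the 4 receptors *NOTCH1*, *NOTCH2*, *NOTCH3* and *NOTCH4*, the ligands *DLL1*, *DLL3*, *JAG1* and *JAG2*, and the target genes *HES1* and *HEY1*, each matched by gene symbol. MDA-MB-231 is an established human line, basal and triple-negative. By description, the 3 libraries labelled WT came from the unedited line, and 3 libraries each from CS16 and CS19. These were described as clones grown from single cells after *SNAI1* was targeted with CRISPR/Cas9, a pool of guide plasmids and puromycin selection. All 9 were labelled as untreated. As described, each clone is 1 editing event, and WT did not pass through selection and cloning. Differences between CS16 and CS19 then cannot be told apart from differences between single cells of the parental line. The labels do not say that libraries of 1 group came from separate cultures, so p-values measure the spread between these libraries, which may be technical.

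Notch receptors are proteins of the cell surface that are cut when a ligand on a neighbouring cell pulls on them. The freed intracellular part enters the nucleus, joins the DNA-binding protein RBPJ and a Mastermind coactivator, and switches on genes such as *HES1* and *HEY1*, which encode repressors. In the breast, Notch signals take part in the choice between luminal and basal cells. SNAI1 is a repressor of epithelial genes.

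The libraries held between 19527195 and 28627777 counted read pairs, with a median of 21463266. Levels are given as CPM, counts scaled to library size with TMM factors, for which 3 counts, taken as the floor of detection, lay between 0.0982 and 0.171 CPM. Floors and intervals cover counting error only. The targeted gene *SNAI1* had 16, 38 and 21 counts in the WT libraries, 26, 40 and 49 in CS16 and 57, 94 and 94 in CS19, so it was not lower in the libraries labelled *SNAI1*-KO (log2 fold change 0.89, Benjamini-Hochberg adjusted p = 0.0838, quasi-likelihood test of edgeR). Groups are therefore named by their labels throughout, and every direction below is a direction between labels. Counts over the whole gene show neither small deletions nor protein. The study reported lower RNA at each *SNAI1* exon by RT-qPCR, deletions at the locus in its reads, and no SNAI1 protein detected in the clones. WT replicate 2 stood apart from the other WT libraries (Pearson r 0.952 and 0.948 over log2(CPM + 1), against 0.995 between replicates 1 and 3). The markers of the labelled cell type also moved with the labels. All 8 basal markers were lower in *SNAI1*-KO, with a summed level of 9307 to 12342 CPM in WT and 515 to 566 CPM in *SNAI1*-KO, and *CD44* and *S100A6* lay at the floor there. Of 9 luminal markers 2 were higher and 5 lower (summed level 1456 to 2135 against 70.8 to 118.9 CPM). Of 5 neural markers 3 were higher, with a summed level of 0.205 to 0.641 CPM in WT, where 4 of them lay at the floor, and of 117.7 to 172.4 CPM in *SNAI1*-KO. Of 6 embryonic kidney markers 4 were higher and 1 lower (16.8 to 31.3 against 34.4 to 42.8 CPM). Of 4 endothelial markers 2 were lower (12.3 to 14.3 against 0.491 to 1.77 CPM), as was 1 of 3 haematopoietic markers (1.54 to 2.77 against 0.143 to 0.347 CPM). The genes *CDKN2A*, *CDKN2B* and *MTAP*, which the MDA-MB-231 genome is known to lack, had 0 counts in the WT libraries and a summed level of 164 to 181.9 CPM in those labelled *SNAI1*-KO. Whether the libraries labelled *SNAI1*-KO came from the line of the WT libraries was not tested. A difference between labels therefore cannot be told apart from a difference in the identity of the cells. The part of these differences in the results on the Notch genes was not tested. In bulk RNA, fewer cells that express a gene cannot be told apart from less of its RNA per cell.

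Promoter sequences of 7 of the 10 genes were taken from RefSeq (GRCh38.p14), each as the 250 bases before the start annotated there. That start is the one in the annotation of the count files for 5 of them, but lies 48 bases inside the listed gene for *JAG2* and 31117 bases inside it for *NOTCH2*. The windows were searched on both strands for TGGGAA, the core bound by RBPJ, for CAGGTG, the E-box bound by SNAI factors, for the E-box CACGTG, and for CACNAG, the N-box bound by HES proteins. The *HES1* promoter (chr3:194135898-194136147, plus strand) is shown because *HES1* is the textbook target of the pathway. Its 2 copies of TGGGAA, in capitals, start 84 and 70 bases before the gene start.
HES1: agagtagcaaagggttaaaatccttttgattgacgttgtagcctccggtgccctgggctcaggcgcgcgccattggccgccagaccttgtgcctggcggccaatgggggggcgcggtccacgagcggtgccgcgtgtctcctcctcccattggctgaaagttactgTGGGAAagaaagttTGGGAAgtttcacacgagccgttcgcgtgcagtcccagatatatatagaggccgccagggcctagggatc
The promoters of *JAG1* (chr20:10674000-10674249, minus strand) and *NOTCH3* (chr19:15200996-15201245, minus strand) are shown because they were the ligand and the receptor with the largest falls and rises among those with an entry. They hold neither TGGGAA nor CAGGTG.
JAG1: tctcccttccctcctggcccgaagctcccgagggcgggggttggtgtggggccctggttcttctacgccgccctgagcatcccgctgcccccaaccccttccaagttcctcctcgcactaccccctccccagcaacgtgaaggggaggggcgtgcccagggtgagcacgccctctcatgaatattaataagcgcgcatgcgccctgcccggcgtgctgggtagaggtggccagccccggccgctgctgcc
NOTCH3: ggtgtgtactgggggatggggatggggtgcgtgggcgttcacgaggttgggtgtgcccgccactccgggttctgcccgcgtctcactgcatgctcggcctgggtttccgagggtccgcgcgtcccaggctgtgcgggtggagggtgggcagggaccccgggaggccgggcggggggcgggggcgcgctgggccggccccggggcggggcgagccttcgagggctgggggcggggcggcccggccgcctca
Among the 7 promoters CAGGTG occurred once each in *NOTCH4* and *JAG2*, which are shown as windows of 30 bases with the motif in capitals (it reads CACCTG where it lies on the other strand), at chr6:32224208-32224237 and chr14:105168795-105168824, both read on the minus strand.
NOTCH4: ctcccctcctatCACCTGccctccaggcac
JAG2: ctcatgcatatgCAGGTGcgcgggtgacga
Of 35116 RefSeq promoters of this length, 20.8% held TGGGAA and 2.90% held it at least 2 times, 17.5% held CAGGTG, 6.34% held CACGTG and 32.0% held CACNAG. *HES1* held 3 copies of CACNAG, *NOTCH3* and *NOTCH4* 1 each, and no promoter of the 7 held CACGTG. A match describes the letters of the window and says nothing of binding in these cells.

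Positions are those of GRCh38 in gencode release 38, the annotation of the count files. The receptors are *NOTCH1* (ENSG00000148400.13, chromosome 9, 136494433 to 136546048), *NOTCH2* (ENSG00000134250.20, chromosome 1, 119911553 to 120100779), *NOTCH3* (ENSG00000074181.9, chromosome 19, 15159038 to 15200995) and *NOTCH4* (ENSG00000204301.6, chromosome 6, 32194843 to 32224067), all on the minus strand. The ligands are *DLL1* (ENSG00000198719.9, chromosome 6, 170282206 to 170306565, minus strand), *DLL3* (ENSG00000090932.11, chromosome 19, 39498895 to 39508481, plus strand), *JAG1* (ENSG00000101384.12, chromosome 20, 10637684 to 10673999, minus strand) and *JAG2* (ENSG00000184916.9, chromosome 14, 105140982 to 105168824, minus strand). The targets are *HES1* (ENSG00000114315.4, chromosome 3, 194136148 to 194138732, plus strand) and *HEY1* (ENSG00000164683.18, chromosome 8, 79762371 to 79767857, minus strand). Counts were summed over exons, and the counting did not use strand. *DLL1* shared 370 of its exon bases (9.69%) with *FAM120B* on the opposite strand, *JAG1* shared 306 (3.29%), *JAG2* 469 (7.33%) and *NOTCH4* 98 (1.01%) with a neighbouring gene, and the other 6 genes shared none. Pairs on shared bases were left out by the counter rather than given to either gene.

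The first comparison asked how the 6 libraries labelled *SNAI1*-KO differed from the 3 labelled WT. By their labels these 6 come from 2 clones, and the fit took each library as a separate sample with no term for the clone. The adjusted p of this comparison therefore does not rest on 6 independent clones. All 10 genes passed the filter on low counts and were tested. A gene with 0 counts in 1 group, such as *DLL3* in WT, could pass that filter only through the other group. Its direction was then settled before the test. *NOTCH3*, *DLL1* and *HEY1*, with few counts in WT, also passed the filter through the libraries labelled *SNAI1*-KO. The same applies to such genes among all genes tested. *NOTCH3*, *DLL1*, *DLL3*, *HES1* and *HEY1* were higher in *SNAI1*-KO, *NOTCH1*, *NOTCH2*, *NOTCH4* and *JAG1* were lower, and *JAG2* did not pass the test. Of those 10, leaving out *DLL3* with its 0 counts in WT, *HEY1* had the largest rise as a log2 fold change and *JAG1* the largest fall. *HEY1* was at 0.460 ± 0.231 CPM in WT and 238 ± 21.7 CPM in *SNAI1*-KO, and *JAG1* at 273 ± 6.95 and 12.8 ± 3.30 CPM (SD, n = 3 and 6). Thus 9 of the 10 passed at an adjusted p below 0.05, 5 higher and 4 lower, where 63.7% of the 19631 genes tested passed, 31.1% higher and 32.6% lower. When the log2 fold change also had to reach 2 or -2, 5 of the 10 passed, 4 higher and 1 lower, against 26.9% of all genes, 12.6% higher and 14.3% lower. The median log2 fold change was 0.56 over the 10 genes and -0.00 over all genes tested. Both shares are to be read against a background in which most genes of these libraries differed between the labels. The same holds where libraries are said not to overlap, since how often this occurred over all genes was not counted.

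**Figure D1:**
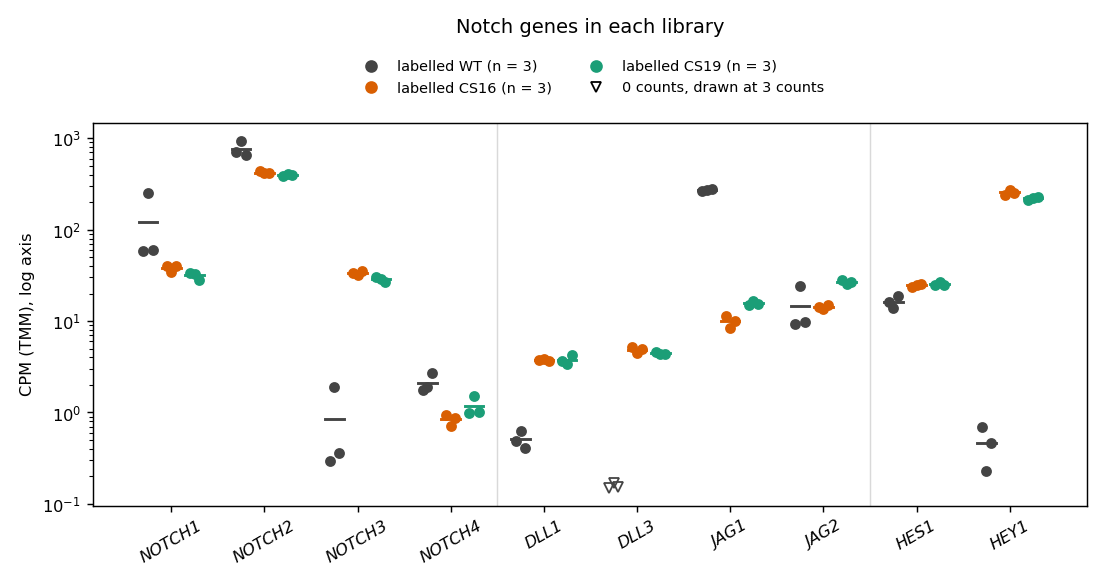
Level of each Notch gene in every library (CPM after TMM scaling, log axis), with a point per library and a line at the mean of each group of 3. Open triangles are libraries with 0 counts, drawn at the level of 3 counts. The *SNAI1*-KO points lie above every WT point for *NOTCH3*, *DLL1*, *DLL3*, *HES1* and *HEY1* and below every WT point for *NOTCH1*, *NOTCH2*, *NOTCH4* and *JAG1*, while for *JAG2* WT replicate 2 lies at 24.1 CPM, just below the CS19 libraries. How many of all genes separate in this way was not counted.

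Among the receptors, *NOTCH2*, the receptor with most RNA per length in every group, had 711, 938 and 655 CPM in the WT libraries, 436, 416 and 413 in CS16, and 384, 405 and 395 in CS19. All *SNAI1*-KO libraries lay below all WT libraries. Its log2 fold change was -0.84 ± 0.20 in CS16 (standard error, adjusted p = 0.00895), -0.93 ± 0.20 in CS19 (adjusted p = 0.00645) and -0.91 ± 0.14 in both together (adjusted p = 0.000135, with edgeR and over all genes tested, as for every adjusted p here unless another tool is named). Both clones were compared with the same WT libraries. Without CS16 replicate 2 the adjusted p of CS16 was 0.0507. *NOTCH2* has near-copies in the genome, from which reads of low mapping quality were removed by the counting. *NOTCH2NLC*, the copy with most counts, had 35 to 147 counts per library and a log2 fold change of -0.82 in *SNAI1*-KO (adjusted p = 0.0315), *NOTCH2NLA* had at most 25 counts in a library, *NOTCH2NLR* at most 4 and *NOTCH2NLB* at most 1. How many pairs of *NOTCH2* were lost to these copies is uncertain.

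*NOTCH1*, the receptor best known from its mutations in leukaemia, had 57.8, 250.4 and 59.3 CPM in the WT libraries. It had 39.9, 34.1 and 39.6 CPM in CS16 and 33.8, 32.8 and 28.5 CPM in CS19. All *SNAI1*-KO libraries lay below all WT libraries, and WT replicate 2 stood far above the other WT libraries. Its log2 fold change in *SNAI1*-KO was -1.82 ± 0.39 (adjusted p = 0.00147), against -1.67 ± 0.58 in CS16 (adjusted p = 0.0419) and -1.92 ± 0.58 in CS19 (adjusted p = 0.0256). Without WT replicate 2 these values were -0.76, -0.63 and -0.87 with adjusted p of 0.000253, 6.16e-05 and 6.58e-07, so that the direction held with a smaller difference and less spread. The calls of single clones also rested on each library of the clone. Leaving out CS16 replicate 1, 2 or 3 gave adjusted p of 0.0924, 0.130 and 0.0934, and leaving out CS19 replicate 1, 2 or 3 gave 0.0730, 0.0808 and 0.0801.

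*NOTCH3*, a receptor known from smooth muscle, was near the floor in WT, with 6, 33 and 7 counts (0.296, 1.88 and 0.359 CPM). It had 33.2, 31.9 and 35.3 CPM in CS16 and 30.6, 28.7 and 26.4 CPM in CS19, from 663 to 888 counts. The groups did not overlap, and the highest WT value was again that of replicate 2. Against WT the log2 fold change was 5.35 ± 0.66 in CS16 (adjusted p = 0.000385), 5.14 ± 0.65 in CS19 (adjusted p = 0.00041) and 5.22 ± 0.50 in *SNAI1*-KO (adjusted p = 3.03e-06). Without WT replicate 2 it was 6.65, 6.45 and 6.54.

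*NOTCH4*, the receptor best known from endothelium, was low throughout, at 1.78, 1.88 and 2.72 CPM in WT (36, 33 and 53 counts), 0.931, 0.716 and 0.875 in CS16, and 1.00, 1.52 and 1.02 in CS19. Every *SNAI1*-KO library lay below the lowest WT library, and CS19 replicate 2 came closest to it. The log2 fold change was -1.30 ± 0.31 in CS16 (adjusted p = 0.00874), -0.81 ± 0.32 in CS19, which did not pass (adjusted p = 0.0657), and -1.07 ± 0.28 in *SNAI1*-KO (adjusted p = 0.00533). Without WT replicate 2 the value of CS19 was -0.92 and passed (adjusted p = 0.0185). Of the 4 endothelial markers, *PECAM1* and *KDR* were also lower in *SNAI1*-KO, and *CDH5* and *TEK* had too few counts to be tested, with at most 1 count of *CDH5* in any library. Their part in the lower *NOTCH4* was not tested.

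Among the ligands, *JAG1* encodes the Jagged ligand with the broadest expression in epithelia. It had 268.1, 270.4 and 281.1 CPM in the WT libraries, 11.3, 8.40 and 10.1 in CS16, and 15.0, 16.4 and 15.5 in CS19. The 3 groups did not overlap, with WT highest, CS19 next and CS16 lowest, and WT replicate 2 lay between the other WT libraries. The log2 fold change was -4.75 ± 0.20 in CS16 (adjusted p = 5.76e-06), -4.09 ± 0.18 in CS19 (adjusted p = 4.73e-06) and -4.42 ± 0.21 in *SNAI1*-KO (adjusted p = 8.58e-09).

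*JAG2*, the second Jagged ligand, had 9.37, 24.1 and 9.86 CPM in WT, 14.2, 13.5 and 15.2 in CS16, and 27.9, 25.7 and 26.7 in CS19. WT replicate 2 lay above all CS16 libraries and the other WT libraries below them, so WT and CS16 overlapped, whereas all CS19 libraries lay above all others. Against WT the log2 fold change was 0.01 ± 0.38 in CS16 (adjusted p = 0.987), 0.93 ± 0.38 in CS19 (adjusted p = 0.0742) and 0.51 ± 0.36 in *SNAI1*-KO (adjusted p = 0.242), none of which passed. All of them passed without WT replicate 2, with values of 0.57 (adjusted p = 0.00159), 1.5 (adjusted p = 3.30e-09) and 1.09 (adjusted p = 0.0102). With all libraries kept, CS19 also passed with DESeq2 (0.97, adjusted p = 0.0355), without the filter on low counts (1.02, adjusted p = 0.0135), with 1 fit of 3 groups (0.89, adjusted p = 0.0365) and with the replicate block (1.07, adjusted p = 0.041).

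*DLL3* encodes a Delta-like protein that acts inside the cell, binds Notch without activating it and is used as a marker of neuroendocrine tumours. It had 0 counts in all WT libraries, which allows a level of up to 0.171 CPM (3 counts), and 106, 94 and 123 counts in CS16 and 102, 100 and 135 in CS19. These correspond to 5.20, 4.49 and 4.89 CPM in CS16 and 4.64, 4.34 and 4.42 CPM in CS19. Against the highest floor of a WT library, *DLL3* was at least 28.4-fold higher in CS16, at least 26.1-fold higher in CS19 and at least 27.2-fold higher in both together (adjusted p = 9.42e-05, 8.1e-05 and 1.34e-07). With 0 counts in WT, *DLL3* could only come out higher once it entered the test. Of the 5 neural markers, 4 of which lay at the floor in WT, the 3 that could be tested (*SOX2*, *NEFL* and *NEFM*) were also higher in these libraries, while *STMN2* had 4 counts in 1 of them and 0 in the other 5. Their part in the result was not tested.

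*DLL1*, a Delta-like ligand that activates Notch on neighbouring cells, had 10, 11 and 8 counts in WT (0.493, 0.627 and 0.411 CPM). It had 3.73, 3.87 and 3.66 CPM in CS16 and 3.64, 3.38 and 4.22 CPM in CS19, from 76 to 129 counts. The clones lay well above WT and overlapped with each other. Its log2 fold change was 2.90 ± 0.29 in CS16 (adjusted p = 0.000147), 2.91 ± 0.30 in CS19 (adjusted p = 0.000155) and 2.87 ± 0.25 in *SNAI1*-KO (adjusted p = 1.39e-06).

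**Figure D2:**
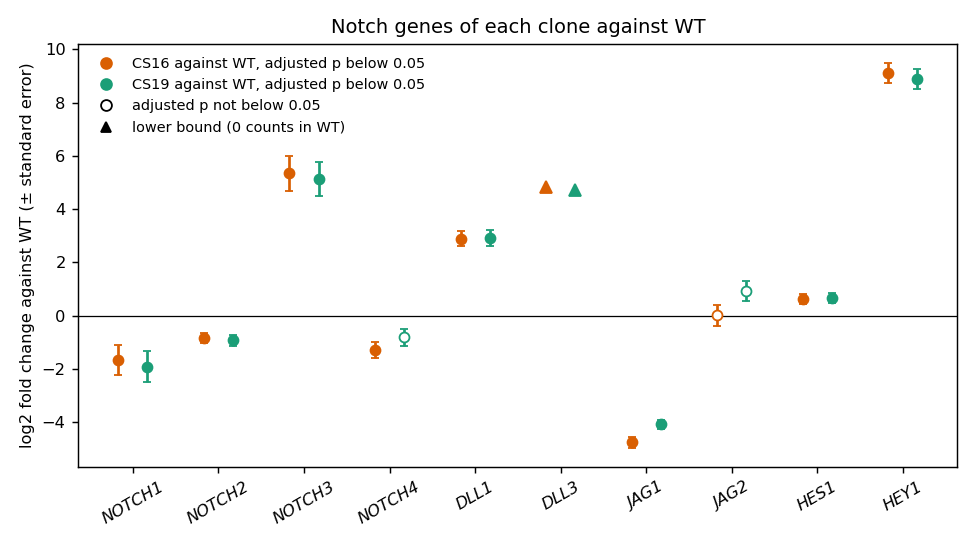
Log2 fold change of each Notch gene in CS16 and in CS19, each against the same 3 WT libraries, with bars of 1 standard error. Filled points passed at an adjusted p below 0.05, open points did not, and triangles are lower bounds for *DLL3*, which had 0 counts in WT. Values in CS16 and CS19 run from -4.75 and -4.09 for *JAG1* to 9.10 and 8.90 for *HEY1*, with *JAG2* at 0.01 and 0.93. These 3 genes also passed when the clones were tested against each other.

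Of the targets, *HEY1*, which encodes a basic helix-loop-helix repressor, had 14, 4 and 9 counts in WT and 4675 to 6929 counts in the libraries labelled *SNAI1*-KO. In CPM it went from 0.690, 0.228 and 0.462 in WT to 241.3, 269.9 and 254.9 in CS16 and to 212.4, 221.7 and 226.8 in CS19. The 3 groups did not overlap. With these values the log2 fold change was 9.10 ± 0.38 in CS16 (adjusted p = 5.2e-06), 8.90 ± 0.38 in CS19 (adjusted p = 4.46e-06) and 8.97 ± 0.30 in *SNAI1*-KO (adjusted p = 9.46e-10).

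*HES1*, the other basic helix-loop-helix repressor and the gene whose promoter with 2 RBPJ cores is shown above, differed far less. It had 16.3, 13.9 and 18.9 CPM in WT, 23.3, 25.1 and 25.4 in CS16, and 24.5, 26.9 and 24.6 in CS19. All *SNAI1*-KO libraries lay above all WT libraries, and the clones overlapped. The log2 fold change was 0.62 ± 0.19 in CS16 (adjusted p = 0.0249), 0.67 ± 0.19 in CS19 (adjusted p = 0.0194) and 0.61 ± 0.15 in *SNAI1*-KO (adjusted p = 0.00341). The calls of single clones rested on 7 of the libraries, and that of CS16 also on the filter on low counts (adjusted p = 0.0615 without it). The adjusted p of CS16 was 0.0784 without WT replicate 1 and 0.0877, 0.0743 and 0.114 without CS16 replicates 1, 2 and 3, and that of CS19 was 0.0582 without WT replicate 1 and 0.0577, 0.0733 and 0.0663 without CS19 replicates 1, 2 and 3. Both clones together passed without any 1 of the 9 libraries, in a fit that took the libraries of 1 clone as separate samples.

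Each clone against WT gave similar counts. In CS16 9 of the 10 genes passed, 5 higher and 4 lower, where 55.6% of 18611 genes passed (27% higher, 28.6% lower), and 5 passed with the fold cut-off, where 27.1% of all genes did (11.8% higher, 15.3% lower). In CS19 8 passed, 5 higher and 3 lower, where 52.9% of 18935 genes passed (26.3% higher, 26.6% lower), and 5 passed with the fold cut-off, where 26.4% did (12% higher, 14.4% lower). In both clones these 5 were *NOTCH3*, *DLL1*, *DLL3*, *JAG1* and *HEY1*. Without WT replicate 2 all 10 genes passed in each of the 3 comparisons with WT, where 67.2% of all genes passed in *SNAI1*-KO, 72.7% in CS16 and 71.2% in CS19.

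The second comparison asked whether the clones differed from each other. *JAG1* and *JAG2* were lower in CS16 than in CS19, with log2 fold changes of -0.66 ± 0.11 (adjusted p = 0.000781) and -0.91 ± 0.09 (adjusted p = 7.05e-06), and *HEY1* was higher, at 0.21 ± 0.06 (adjusted p = 0.0276). These 3 of the 10 genes passed, 1 higher and 2 lower, where 27.4% of the 17538 genes tested passed (14.7% higher, 12.7% lower). By edgeR none reached the fold cut-off, the largest difference being 0.91, where 1.13% of all genes did (0.633% higher, 0.496% lower). DESeq2 also found 0 of the 10 past the fold cut-off, and by edgeR 5 had an unadjusted p below 0.05. For *JAG1* and *JAG2* the libraries of the clones did not overlap and the calls held without each of the 6 libraries, although *JAG2* was not called when all 3 groups shared 1 fit (adjusted p = 0.207). *HEY1* rested on single libraries, since its adjusted p was 0.0661 without CS16 replicate 2, 0.0817 without CS16 replicate 3, and 0.0962, 0.0535 and 0.0692 without CS19 replicates 1, 2 and 3.

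The other 7 genes did not pass between the clones, which does not show that they were equal. Their differences, CS16 minus CS19 on the log2 scale, were 0.25 ± 0.09 for *NOTCH1* (adjusted p = 0.0631), 0.09 ± 0.06 for *NOTCH2* (0.322), 0.22 ± 0.09 for *NOTCH3* (0.0712) and -0.48 ± 0.30 for *NOTCH4* (0.266). Those of the ligands *DLL1* and *DLL3* were -0.01 ± 0.16 (0.97) and 0.12 ± 0.14 (0.598), and that of *HES1* was -0.05 ± 0.08 (0.722). *NOTCH1* and *NOTCH3* lay close to the threshold, and without CS16 replicate 2 they passed (0.33 with adjusted p = 0.00961 and 0.27 with adjusted p = 0.034). *NOTCH1* also passed with RLE scaling (adjusted p = 0.0482), without the filter on low counts (0.0494) and with DESeq2 (0.0497). *NOTCH4* had the largest standard error, with 15 to 35 counts per library in the clones.

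Levels of different genes were compared only as TPM, in which counts are divided by the length of a gene's exons before scaling. Summed over the 4 receptors, WT held 159 ± 65.9 TPM, from 104.5 to 232.4, CS16 87.0 ± 13.8 and CS19 77.5 ± 9.27 (SD, n = 3 each). *NOTCH2* made up most of this sum in every group, with 81.5% ± 10.2 in WT, 76.0% ± 1.22 in CS16 and 77.7% ± 1.57 in CS19. *NOTCH1* made up 17.8% ± 10.2 in WT, where replicate 2 had 29.6%, and 10.9% ± 0.702 and 9.92% ± 0.779 in CS16 and CS19. *NOTCH3* went from 0.158% ± 0.120 in WT, or 0.0892% without replicate 2, to 12.8% ± 0.660 in CS16 and 11.9% ± 0.832 in CS19, so that *NOTCH1* and *NOTCH3* held similar shares in the clones, while *NOTCH4* stayed at 0.310% to 0.491% as a group mean.

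The ligands changed in both sum and makeup. Summed over *DLL1*, *DLL3*, *DLL4*, *JAG1* and *JAG2*, the 5 canonical ligands, WT held 102.7 ± 13.4 TPM, CS16 19.9 ± 3.65 and CS19 27.1 ± 2.46, and the ranges of WT and the clones did not overlap. In WT *JAG1* alone made up 92.2% ± 3.99 and *JAG2* 7.0% ± 3.78. In CS16 *JAG2* was first with 35.1% ± 1.40, followed by *DLL3* with 29.2% ± 0.780, *JAG1* with 16.7% ± 1.53 and *DLL1* with 15.5% ± 1.43. In CS19 *JAG2* was again first with 46.9% ± 1.03, *DLL3* with 19.1% ± 0.333 and *JAG1* with 18.9% ± 1.27 were next to each other within their spread, and *DLL1* had 11.0% ± 1.19. Shares sum to a fixed total, so that of *JAG2* grows as *JAG1* falls even where the level of *JAG2* does not differ. *DLL4*, a ligand best known from endothelium, held 0.350% in WT, 3.41% in CS16 and 4.07% in CS19.

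The other 69 listed genes of the pathway were grouped by role. In *SNAI1*-KO against WT 63 were tested, and 15 were higher and 26 lower at an adjusted p below 0.05, against 31.1% and 32.6% of all genes. With the fold cut-off 6 were higher and 13 lower, against 12.6% and 14.3% of all genes. The median log2 fold change was -0.30, against -0.00 over all genes. The counts by role below belong to this comparison and are to be read against the same 31.1% and 32.6%. In CS16 13 were higher and 21 lower, against 27% and 28.6% of all genes. In CS19 11 were higher and 19 lower, against 26.3% and 26.6%. Without WT replicate 2 the number that passed went from 34 to 53 in CS16 and from 30 to 48 in CS19, while the share of all genes that passed went from 55.6% to 72.7% and from 52.9% to 71.2%.

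All 5 tested ligands outside the 10 genes passed, 2 higher and 3 lower. *CNTN1*, a neural adhesion molecule proposed as a Notch ligand, went from 0.125 ± 0.110 CPM in WT to 62.5 ± 6.10 CPM in *SNAI1*-KO (log2 fold change 8.93, adjusted p = 7.17e-09). *MFAP2*, a microfibril protein that binds Jagged, fell from 5.20 ± 0.125 CPM to 7 counts over the 6 libraries, a ratio of 105.6 with a 95% counting interval of 50.6 to 264.9 (adjusted p = 1.54e-07). *DNER*, a ligand-like protein of neurons, fell from 4.26 ± 1.38 to 0.105 ± 0.0846 CPM (log2 fold change -5.26, adjusted p = 3.9e-06). *CNTN1* and *DNER* are both known from neurons and moved in opposite directions.

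Of the 4 ubiquitin ligases that act on ligands in the sending cell, *MIB1* was higher, at 224 ± 65.9 CPM in WT and 342 ± 17.5 CPM in *SNAI1*-KO (log2 fold change 0.61, adjusted p = 0.0122). *NEURL1B* fell from 23.9 ± 4.16 to 5.97 ± 1.49 CPM (log2 fold change -2.0, adjusted p = 8.57e-06) and *MIB2* from 61.5 ± 41.6 to 25.6 ± 2.35 CPM (log2 fold change -1.26, adjusted p = 0.00289). Without WT replicate 2, the library with least *MIB1* and most *MIB2* RNA, *MIB1* was at 0.38 and *MIB2* at -0.55. In CS19 alone neither passed, although both did without WT replicate 2 (adjusted p = 0.00224 and 0.000428) and with 1 fit of 3 groups (0.0358 and 0.0178). *MIB2* in CS19 also passed with RLE scaling (0.0471), without the filter on low counts (0.0117) and with DESeq2 (0.0225). It passed as well without WT replicate 1 (0.0278) or 3 (0.0315). In CS16 alone both passed, but lost the call without any 1 of the CS16 libraries (adjusted p from 0.0746 to 0.153). With the replicate block both also lost it (0.0816 for *MIB1* and 0.0812 for *MIB2*). *MIB1* in CS16 lost it with RLE scaling (0.0557) and without WT replicate 1 (0.0811) too.

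Of 5 glycosyltransferases that add sugars to the receptors, 1 was higher and 3 were lower. *LFNG* and *MFNG*, Fringe enzymes that shift receptors between Delta-like and Jagged ligands, fell from 25.2 ± 5.11 to 1.17 ± 0.336 CPM (log2 fold change -4.43, adjusted p = 3.19e-08) and from 5.05 ± 2.16 to 0.421 ± 0.162 CPM (-3.54, adjusted p = 3.91e-06). *POGLUT1*, which adds glucose, rose from 17.5 ± 8.25 to 39.0 ± 3.43 CPM (1.16, adjusted p = 0.00379). It was at 0.81 without WT replicate 2, which had 7.93 CPM against 21.9 and 22.5 in the other WT libraries. The call of each clone alone was lost without any 1 library of that clone (adjusted p from 0.0568 to 0.0959). Of the 9 proteases that cut the receptors, 3 were lower and 6 did not pass. *ADAM10*, which makes the cut that ligand binding triggers, fell from 373 ± 109 to 84.8 ± 6.32 CPM (-2.14, adjusted p = 7.51e-07), *NCSTN*, a subunit of γ-secretase, from 95.7 ± 33.2 to 43.0 ± 3.33 CPM (-1.15, adjusted p = 0.000165), and *FURIN*, which cuts the receptor during its maturation, from 87.0 ± 72.1 to 32.9 ± 4.13 CPM (-1.40, adjusted p = 0.00469). Without WT replicate 2 *NCSTN* was at -0.84. *FURIN* passed in neither clone alone against WT. With DESeq2 it passed in CS16 (adjusted p = 0.0277) and in CS19 (adjusted p = 0.0188). Without WT replicate 2 *FURIN* was at -0.47 in *SNAI1*-KO, -0.42 in CS16 and -0.50 in CS19, and passed in each.

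In the nucleus, 1 of 9 genes of the activating complex was higher and 4 were lower. *RBPJ*, the DNA-binding protein through which all 4 receptors act, fell from 236 ± 66.2 to 88.6 ± 11.7 CPM (log2 fold change -1.42, adjusted p = 3.56e-05). The coactivator *MAML2* fell from 63.9 ± 15.9 to 3.17 ± 0.547 CPM (-4.33, adjusted p = 9.5e-09) and the acetyltransferase *KAT2B* from 49.3 ± 16.2 to 18.1 ± 2.75 CPM (-1.45, adjusted p = 9.67e-05). Of 13 corepressors 5 were higher and 3 lower. *TLE4*, a Groucho corepressor that HES proteins recruit, had 0 counts in WT and 3466 to 5472 counts in the other libraries, and was at least 1030-fold higher (adjusted p = 8.24e-10), and its relative *TLE2* rose from 0.801 ± 0.325 to 9.29 ± 1.25 CPM (3.54, adjusted p = 8.57e-07).

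Of 9 tested inhibitors and turnover factors, 5 were lower and 4 did not pass. In CS16 alone 1 was higher and 4 were lower, and in CS19 alone 4 were lower. The 3 named ones belong to the Deltex family of ubiquitin ligases. *DTX3L* had 1056 to 1437 counts in WT and 0 in all 6 other libraries, and was at least 454-fold lower (adjusted p = 1.11e-07). *DTX3* fell from 12.2 ± 2.11 CPM to 6 counts over 6 libraries, a ratio of 287 with a 95% counting interval of 131 to 786 (adjusted p = 6.39e-08). *DTX2* fell from 35.8 ± 31.4 to 5.47 ± 0.858 CPM (log2 fold change -2.71, adjusted p = 8.67e-05), and was at -1.70 without WT replicate 2.

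Of 9 tested targets outside the 10 genes, 5 were higher and 3 lower. *HEY2*, the sister gene of *HEY1*, had 3 counts over the WT libraries and 2.77 to 4.81 CPM in the others, a ratio of 67.9 with a 95% counting interval of 23.1 to 330.2 (adjusted p = 1.16e-06). *NRARP*, which encodes a feedback inhibitor of the pathway, rose from 0.656 ± 0.232 to 13.9 ± 1.06 CPM (log2 fold change 4.40, adjusted p = 4.06e-08). *HES2* fell from 8.36 ± 2.20 to 0.205 ± 0.127 CPM (-5.26, adjusted p = 1.86e-07). *CCND1*, which encodes cyclin D1 and has many inputs besides Notch, fell from 847 ± 201 to 50.2 ± 42.8 CPM (-4.08, adjusted p = 0.000405). *HES6*, which encodes an inhibitor of HES1, rose from 4.63 ± 1.24 to 11.9 ± 6.56 CPM (1.37, adjusted p = 0.0227), a call lost without WT replicate 1 (adjusted p = 0.083) or WT replicate 3 (adjusted p = 0.057). CS19 against WT passed (1.96, adjusted p = 0.000684), whereas CS16 did not (0.47, adjusted p = 0.19).

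Between the clones 14 of the 58 tested pathway genes passed, 8 higher and 6 lower in CS16, which is 24.1% against 27.4% of all genes (14.7% higher, 12.7% lower), and the median log2 fold change was 0.02. Of these 14, *CCND1* and *HES6* alone differed by a log2 fold change of at least 1. *CCND1* had 89.2 ± 5.40 CPM in CS16 and 11.2 ± 1.00 in CS19 (2.99 ± 0.09, adjusted p = 2.38e-10), and *HES6* had 6.27 ± 1.06 and 17.6 ± 3.22 CPM (-1.50 ± 0.16, adjusted p = 1.14e-05). Of the other named genes *NEURL1B* (0.60, adjusted p = 0.00628) and *RBPJ* (0.33, adjusted p = 0.00154) were higher in CS16 and *KAT2B* (-0.35, adjusted p = 0.0152) was lower. The call of *KAT2B* was lost without CS19 replicate 1 (adjusted p = 0.0595) or CS19 replicate 2 (adjusted p = 0.0654). When all 3 groups shared 1 fit, *NEURL1B*, *RBPJ* and *KAT2B* were not called (adjusted p = 0.133, 0.533 and 0.628).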

How the data were processed

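RNA was measured in 9 libraries, in 3 groups taken from the labels. Reads were trimmed by the authors (Trimmomatic 0.36) and aligned with STAR 2.7.2b in 2 passes to GRCh38.p13. The authors then counted read pairs per gene with featureCounts of Subread 2.0.0 on gencode release 38, with both mates aligned, no chimeric pairs, a mapping quality of at least 30 and no use of strand. They deposited whole counts per gene and library, not normalized. The reads carried no molecular identifiers.

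The tests were run with edgeR 4.0.16 under R 4.3.3 (filterByExpr, TMM, quasi-likelihood test, Benjamini-Hochberg adjustment over all genes tested), each comparison in a fit of its own groups, and in Python 3.11.15. The fold cut-off was a log2 fold change of 2. Standard errors were obtained from the absolute log2 fold change and F, as their quotient after taking the root of F. TPM used the exon lengths of the files. DESeq2 1.42.0, RLE scaling, no filter, a filter of 10 counts in 3 or more libraries, the removal of the 100 most abundant genes, 1 fit of 3 groups, the replicate block and leaving out each library were alternatives. The code was tested on simulated data.

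The 10 genes, the pathway list and the marker lists (basal, luminal, kidney, neural, endothelial, haematopoietic and 9p21 genes) were chosen with earlier results of these data known, so none is independent support. Named pathway genes were, per role, up to 3 with the largest fold change in *SNAI1*-KO against WT among those that passed with a mean of at least 1 CPM in a group, and those that passed between clones with a log2 fold change of at least 1. *DLL4*, the fifth canonical ligand, and *FAM120B*, an overlapping gene, are outside that rule and were named after their values were seen. 1 gene under that rule is not reported here. Proteins and protein sequences were not analysed here.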

Additional observations from a re-analysis of the deposited data

Results flagged for a closer look

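Of 36 genes, those with more than 3 counts in at least 1 of the 6 libraries labelled *SNAI1*-KO were put to Dixon's criterion. In 2 of them 1 library lay past it. Chance flags about 1 in 20 sets of values drawn from 1 normal distribution, which values of 2 clones need not follow. *NOTCH4* was highest in CS19 replicate 2, whose gap to the nearest library was 0.627 of the whole range, just past the criterion. *HES2* was highest in CS19 replicate 3, with a gap of 0.789 of the range, at 14 counts against 3 or 4 in the other 5 libraries.

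The other flagged results are differences between the effects of CS16 and CS19 against the shared WT libraries, tested directly between the clones with edgeR's quasi-likelihood test. On the log2 scale, CS16 minus CS19, they were -0.66 for *JAG1*, -0.91 for *JAG2*, 0.21 for *HEY1*, 0.60 for *NEURL1B*, 0.33 for *RBPJ*, -0.35 for *KAT2B*, -1.50 for *HES6* and 2.99 for *CCND1*.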

How the results depend on the processing

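Of the log2 fold changes of named genes, 1596 values under alternatives kept direction and call, 52 lost the call, 47 gained it and 8 reversed. No reversed value passed. They were *JAG2* in CS16 against WT at -0.018 with 1 fit of 3 groups and from -0.22 to 0.57 when single libraries were left out (0.57, without WT replicate 2, is no reversal and passed), *DLL1* between the clones at 0.0098 with DESeq2 and from -0.074 to 0.098 when single libraries were left out, and *HES1* between the clones from -0.068 to 0.0038 likewise. Without the filter on low counts 8662 genes were called in *SNAI1*-KO against WT (5272 with it), 7513 in CS19 (4990) and 352 between the clones (198), and the median of all genes in *SNAI1*-KO against WT moved by 0.108. With 1 fit of 3 groups 1 of the 10 genes, 3 pathway genes and 3.33% of all genes passed between the clones. Leaving out single libraries gave 26 to 53 pathway genes in CS16 and 28 to 48 in CS19. Where counts were not divided by length, the shares in CS16 and CS19 were 7.66% and 6.95% for *NOTCH1*, 85.4% and 86.5% for *NOTCH2*, 6.79% and 6.28% for *NOTCH3*, 11.1% and 7.16% for *DLL1* (0.177% in WT), 14.4% and 8.53% for *DLL3*, 29.2% and 29.9% for *JAG1* and 42.2% and 51.1% for *JAG2*, so that *JAG1* then came before *DLL3*. DESeq2 gave no adjusted p for *NOTCH1* in *SNAI1*-KO against WT. The cause of these shifts was not tested beyond what each setting removes or adds.

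Replicate numbers did not pair the libraries, with correlations of deviations between -0.387 and 0.331 for the same number. With the replicate block 60.3% of all genes passed in *SNAI1*-KO, 47.3% in CS16, 49.5% in CS19 and 18.1% between the clones. Of the 10 genes 9 passed in *SNAI1*-KO, 7 in CS16 (*NOTCH1* at an adjusted p of 0.101 and *HES1* at 0.078 did not), 8 in CS19 (*JAG2* at 0.041 passed and *HES1* at 0.0538 did not) and 2 between the clones (*HEY1* at 0.119 did not). Depth limits *NOTCH4*, *DLL1* and the WT values of *NOTCH3*, *DLL3* and *HEY1*, which rest on few counts.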
